A study of Homo sapiens with 12 samples.

Results

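The enzymes of glycolysis were followed here through 10 genes: the hexokinases HK1, HK2 and HK3, the phosphofructokinase subunits PFKP and PFKL with their regulator PFKFB3, aldolase (ALDOA), phosphoglycerate kinase (PGK1), pyruvate kinase (PKM) and lactate dehydrogenase (LDHA). They were read from all probes annotated to them, 25 of the 47320 probes on the array. Of these, 18 were detected (p under 0.01) on both arrays in 1 or more groups and were kept, and every gene had at least 1 such probe. RNA came from 2 human cell lines on 12 Illumina BeadChip arrays, with 2 arrays in each of 6 groups. THP-1 cells grow from a monocytic leukemia, whereas BEAS-2B cells are bronchial epithelium immortalized with a viral gene. All cells were deprived of serum overnight. The groups were THP-1 in medium, THP-1 with an extract of poultry dust at 0.1% for 1 h or for 3 h, BEAS-2B in medium, and BEAS-2B with the extract at 0.25% for 1 h or for 3 h.

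Because the extract was stronger for BEAS-2B, line and dose cannot be told apart in any comparison of the responses. How long the control cells stayed in medium is not stated, nor whether both arrays of a group had cultures of their own, and the p-values rest on a spread between arrays that may be only technical. In RNA from whole cultures, fewer cells with a transcript and less of it per cell cannot be told apart. The THP-1 arrays carry a source name that reads A459. On them all 9 monocyte markers with a probe were detected on both arrays of every group, while of 9 epithelial markers at most 1 (LAMB3) was. On the BEAS-2B arrays all 9 epithelial markers were detected, and 2 to 3 of the 9 monocyte markers (CD14, CD68 and, after 1 h, LYZ). Summed over the list, the monocyte markers gave a normalized intensity of 32655 to 37470 on THP-1 arrays and of 1101 to 1323 on BEAS-2B arrays.

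Glycolysis splits glucose into pyruvate in the cytosol and yields ATP without oxygen. Its flux is set mainly where hexokinase traps glucose as a phosphate, where phosphofructokinase commits it to breakdown, and where pyruvate kinase releases the product, and lactate dehydrogenase then recycles the cofactor that keeps the pathway running. Macrophages and monocytes raise glycolysis when bacterial products activate them, partly through the hypoxia-inducible factor HIF1A, whose binding sequence lies in the promoters of many glycolysis genes.

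Promoter windows are shown because that element can be looked for in their letters. They come from RefSeq, build GRCh38.p14, and each runs from 250 bases before to 50 bases after an annotated start. All 10 genes matched, with 24 windows. The letters ACGTG, a form of the core of the hypoxia response element, stood on either strand in 9 of these windows, from 6 genes (ALDOA, HK2, LDHA, PFKFB3, PFKP and PGK1), against 21.4% of all 35116 windows of the same length. The E-box CACGTG, which contains it and reads the same on both strands, stood in 4 windows against 7.26%. The letters TGANTCA, recognised by AP-1, stood in 2 windows, both of HK1, against 7.71%, and the NF-kB motif in 3 windows, of HK1, HK2 and PFKFB3, against 11.3%. A match describes the letters and is not evidence of binding. The 6 windows below belong to HK2, PFKFB3, PKM and LDHA, the genes with the highest folds in either line and the gene that fell. They are a choice, and the matches in the windows of PFKP, ALDOA and PGK1 are not printed. They are written 5′ to 3′ on the gene's strand, with ACGTG on either strand in capitals, and an E-box therefore appears as 6 capitals. The PKM window and the first PFKFB3 window hold no ACGTG, nor does the second LDHA window, which is not printed.
HK2 window 1, chr2:74833877-74834176 (+ strand): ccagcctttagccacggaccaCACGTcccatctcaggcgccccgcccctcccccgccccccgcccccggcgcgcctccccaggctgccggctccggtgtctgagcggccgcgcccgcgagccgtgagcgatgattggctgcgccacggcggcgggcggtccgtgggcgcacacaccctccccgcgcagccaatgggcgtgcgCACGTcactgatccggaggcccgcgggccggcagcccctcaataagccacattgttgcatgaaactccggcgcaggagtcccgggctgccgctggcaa
HK2 window 2, chr2:74834920-74835219 (+ strand): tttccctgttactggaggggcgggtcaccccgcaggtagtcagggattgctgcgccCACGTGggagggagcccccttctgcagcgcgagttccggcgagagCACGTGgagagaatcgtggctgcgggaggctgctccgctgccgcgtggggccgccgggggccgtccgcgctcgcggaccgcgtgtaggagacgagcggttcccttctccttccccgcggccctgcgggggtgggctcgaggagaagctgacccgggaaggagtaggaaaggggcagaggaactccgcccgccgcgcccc
PFKFB3 window 1, chr10:6144671-6144970 (+ strand): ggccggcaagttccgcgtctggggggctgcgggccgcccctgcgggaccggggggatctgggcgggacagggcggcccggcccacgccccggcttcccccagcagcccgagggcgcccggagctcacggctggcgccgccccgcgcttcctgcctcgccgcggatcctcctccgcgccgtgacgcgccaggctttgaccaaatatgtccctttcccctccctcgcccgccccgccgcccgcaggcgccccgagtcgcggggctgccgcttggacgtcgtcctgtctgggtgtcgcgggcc
PFKFB3 window 2, chr10:6202682-6202981 (+ strand): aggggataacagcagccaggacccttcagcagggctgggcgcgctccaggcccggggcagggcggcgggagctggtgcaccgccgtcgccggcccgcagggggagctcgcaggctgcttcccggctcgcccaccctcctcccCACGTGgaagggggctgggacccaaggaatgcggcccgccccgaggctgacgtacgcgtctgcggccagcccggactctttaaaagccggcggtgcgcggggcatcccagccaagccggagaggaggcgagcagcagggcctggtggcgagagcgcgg
PKM window 1, chr15:72231141-72231440 (- strand): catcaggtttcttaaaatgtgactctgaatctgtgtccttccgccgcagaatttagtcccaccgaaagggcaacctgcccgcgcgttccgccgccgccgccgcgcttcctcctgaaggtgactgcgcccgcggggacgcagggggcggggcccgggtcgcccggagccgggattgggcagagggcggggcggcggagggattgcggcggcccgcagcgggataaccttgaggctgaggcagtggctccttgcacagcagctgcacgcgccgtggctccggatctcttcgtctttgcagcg
LDHA window 1, chr11:18394313-18394612 (+ strand): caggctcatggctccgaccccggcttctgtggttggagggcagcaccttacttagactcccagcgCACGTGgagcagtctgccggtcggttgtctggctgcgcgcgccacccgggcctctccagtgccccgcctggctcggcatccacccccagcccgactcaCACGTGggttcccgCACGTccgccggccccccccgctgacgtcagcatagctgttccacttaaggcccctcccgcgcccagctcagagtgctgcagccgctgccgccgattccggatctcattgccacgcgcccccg

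After 3 h of dust, THP-1 cells carried more PKM, PFKFB3, PFKP and ALDOA RNA and less LDHA RNA than in medium, whereas in BEAS-2B cells HK2 was the gene of the 10 that rose. PKM in THP-1 was 2.22-fold higher, PFKFB3 2.17-fold, PFKP 1.54-fold and ALDOA 1.40-fold, LDHA was 1.30-fold lower, and HK2 in BEAS-2B was 1.69-fold higher. After 1 h no member passed the test in either line. Levels are log2 intensities after background correction and quantile normalization, differences are on the same scale ± SE, and a gene was called at an adjusted p under 0.05 in limma's fit over all 15489 genes and unnamed probes. Among all of these, 1.65% were called in THP-1 at 1 h, 45.6% in THP-1 at 3 h, 1.18% in BEAS-2B at 1 h and 5.47% in BEAS-2B at 3 h. Of the 10 genes, 0, 5, 0 and 1 were called. The PFKP and LDHA calls in THP-1 ended under median scaling, and the ALDOA call with no filter on dim probes. Further limits of each call, also that of HK2, are given below. In THP-1 at 3 h 4 of the 10 were called higher and 1 lower, against 19.1% and 26.5% of all genes, and in BEAS-2B at 3 h 1 higher and 0 lower, against 3.26% and 2.21%. The count in THP-1 at 3 h lay near the share over all genes. Dust and control arrays did not overlap there for 7 of the 10 genes, against 67.9% of all genes. At an unadjusted p under 0.05, 0 of the 10 passed in THP-1 at 1 h and 1 (HK2) in BEAS-2B at 1 h. The median difference of the 10 genes in THP-1 at 3 h was 0.12, and that of all genes -0.05. In BEAS-2B at 3 h the medians were -0.0038 and -0.038.

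**Figure D1:**
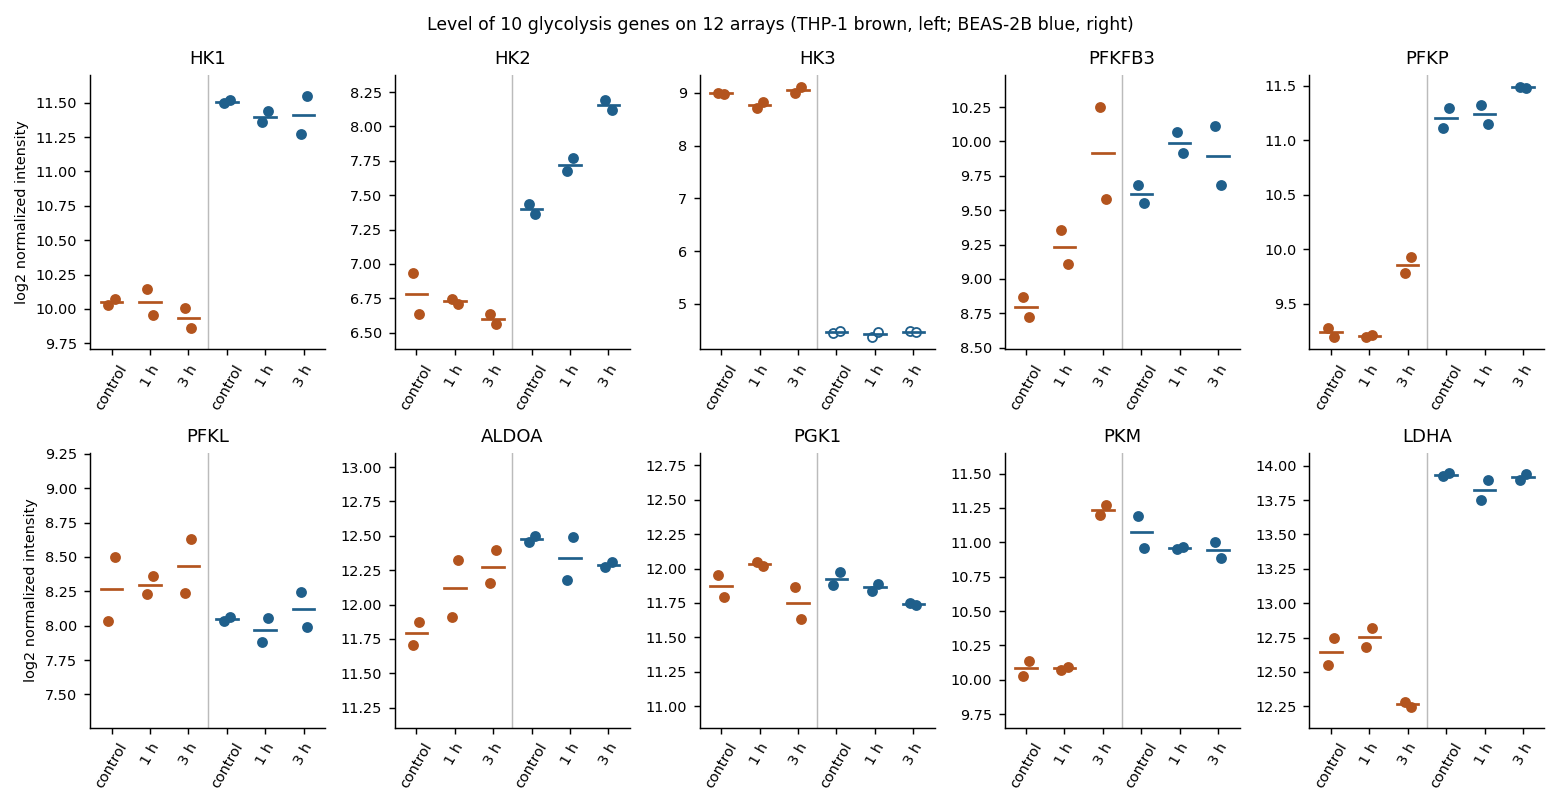
Level of each of the 10 genes on the 12 arrays, as log2 normalized intensity of the brightest kept probe; each panel has its own scale with THP-1 on the left and BEAS-2B on the right, points are arrays, bars are group means of 2 arrays and open points were not detected. PKM and PFKP stepped up in THP-1 at 3 h, HK2 climbed in BEAS-2B, and HK3 was detected in THP-1 but not in BEAS-2B.

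The hexokinases catalyse the first step, and the 3 genes behaved differently. HK2, the inducible isoform that binds mitochondria, had levels of 7.43 and 7.36 in BEAS-2B in medium, 7.68 and 7.77 after 1 h, and 8.19 and 8.12 after 3 h of dust. The 3 BEAS-2B groups did not overlap, and each later time lay above the one before. The difference from control was 0.33 ± 0.14 at 1 h (adjusted p = 0.696) and 0.76 ± 0.14 at 3 h (adjusted p = 0.00990). In THP-1 the same probe lay lower, at 6.93 and 6.64 in medium, 6.75 and 6.71 after 1 h, then 6.63 and 6.56 after 3 h. The THP-1 difference at 3 h was -0.18 ± 0.14 (adjusted p = 0.302), and under median scaling it was -0.58 and called lower (adjusted p = 0.00652).

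The second HK2 probe moved further. In BEAS-2B it read 7.32 and 7.41 in medium and 8.67 and 8.78 after 3 h, a difference of 1.36 ± 0.18 (adjusted p = 0.00157 among all 19045 kept probes). In THP-1 it read 5.61 and 5.95 in medium, where it was detected on 1 of the 2 arrays, and 5.16 and 4.69 after 3 h, where it was detected on neither. That difference of -0.86 ± 0.18 passed the test (adjusted p = 0.00253), but with the dust group below detection no fold is given. The BEAS-2B call on the first probe ended when either control array or replicate 1 of the 3 h arrays was left out, with adjusted p of 0.0808, 0.0950 and 0.0577 and differences between 0.72 and 0.79.

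HK1, the form found in most tissues, was not called after dust in either line. Its levels were 10.03 and 10.07 in THP-1 in medium and 10.01 and 9.86 after 3 h, and in BEAS-2B 11.50 and 11.52 in medium and 11.27 and 11.55 after 3 h. The THP-1 difference at 3 h was -0.11 ± 0.14 (95% interval -0.43 to 0.20), although under median scaling it was -0.43 and called lower (adjusted p = 0.0392). The other 3 HK1 probes were not kept, as each was detected on at most 1 of 12 arrays.

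HK3, the third hexokinase, was detected on all 6 THP-1 arrays and on none of the BEAS-2B arrays. THP-1 levels were 9.00 and 8.98 in medium, 8.71 and 8.82 after 1 h, then 9.00 and 9.11 after 3 h. The dip at 1 h separated the groups but did not pass the test, with a difference of -0.22 ± 0.12 (adjusted p = 0.525). BEAS-2B values between 4.37 and 4.48 were background.

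PFKFB3 makes the sugar bisphosphate that activates phosphofructokinase, and its RNA rose in THP-1. Levels were 8.87 and 8.72 in medium, 9.36 and 9.11 after 1 h, then 10.25 and 9.58 after 3 h. The groups did not overlap in either comparison with control, and the 3 h arrays had the widest spread among the brightest probes of the 10 genes in any group (SD 0.47, n = 2). The difference from control was 0.44 ± 0.22 at 1 h (adjusted p = 0.496) and 1.12 ± 0.22 at 3 h (adjusted p = 0.00212). Without replicate 1 of the 3 h arrays it was 0.78 (adjusted p = 0.0163), and without replicate 2 it was 1.44 (adjusted p = 0.000530). Raw signals of the same probe were 533 and 476 in medium and 958 and 592 after 3 h.

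The second PFKFB3 probe, which was dimmer, also rose in THP-1 at 3 h, by 0.65 ± 0.18 (adjusted p = 0.0143), from 6.54 and 6.49 to 7.29 and 7.03. Its raw signals there, 153 and 144 in medium and 159 and 144 after 3 h, were nearly level. Over all probes the THP-1 3 h arrays had the lowest raw 75th percentiles of the 12, at 126 and 127 against 144 to 181 on the others, and the part of this in the rise was not tested. In BEAS-2B the first probe read 9.68 and 9.55 in medium, 10.07 and 9.91 after 1 h, and 10.11 and 9.68 after 3 h. Neither BEAS-2B difference was called, at 0.37 ± 0.22 (adjusted p = 0.998) for 1 h and 0.28 ± 0.22 (adjusted p = 0.532) for 3 h.

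PFKP encodes the platelet-type subunit of phosphofructokinase. Its THP-1 levels were 9.28 and 9.20 in medium and 9.19 and 9.21 after 1 h, and rose to 9.78 and 9.93 after 3 h. The 3 h arrays lay above both other groups, with a difference from control of 0.62 ± 0.13 (adjusted p = 0.00320). Raw signals were 685 and 633 in medium and 690 and 754 after 3 h, and under median scaling the difference was 0.27 and not called (adjusted p = 0.192). In BEAS-2B the levels were 11.11 and 11.30 in medium, 11.33 and 11.15 after 1 h, then 11.49 and 11.48 after 3 h. The 3 h difference of 0.28 ± 0.13 did not pass (adjusted p = 0.267).

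PFKL, the liver-type subunit, was called in no comparison. Its THP-1 arrays read 8.04 and 8.50 in medium and 8.24 and 8.63 after 3 h, so the groups overlapped. In BEAS-2B they read 8.03 and 8.06 in medium and 8.25 and 7.99 after 3 h. The 95% interval of the THP-1 difference at 3 h ran from -0.26 to 0.59, and its sign turned under median scaling (-0.30, adjusted p = 0.282).

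ALDOA cleaves the doubly phosphorylated sugar into the small sugars that feed the payoff phase. THP-1 levels were 11.71 and 11.87 in medium, 11.91 and 12.33 after 1 h, and 12.16 and 12.40 after 3 h. Both dust groups lay above the control arrays. The differences were 0.33 ± 0.17 at 1 h (adjusted p = 0.514) and 0.49 ± 0.17 at 3 h (adjusted p = 0.0418). The 3 h call ended with each line on its own, where the second probe was the brightest in THP-1 (0.11, adjusted p = 0.692), with no filter on dim probes (adjusted p = 0.0681) and when any 1 of 7 arrays was left out: either THP-1 control array, replicate 2 of THP-1 at 3 h, either BEAS-2B control array or either BEAS-2B array at 3 h (adjusted p = 0.0529 to 0.191). The second ALDOA probe, with levels of 12.08 and 12.46 in medium and 12.30 and 12.43 after 3 h, gave 0.10 ± 0.17 (adjusted p = 0.669). In BEAS-2B the first probe read 12.46 and 12.50 in medium and 12.27 and 12.31 after 3 h, a difference of -0.19 ± 0.17 that was not called (adjusted p = 0.600).

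PGK1 makes the first ATP of the payoff phase and was called in no comparison. In THP-1 it read 11.95 and 11.79 in medium, 12.05 and 12.02 after 1 h, and 11.87 and 11.63 after 3 h. In BEAS-2B it read 11.88 and 11.97 in medium, 11.84 and 11.89 after 1 h, then 11.75 and 11.74 after 3 h. The 95% intervals of the 3 h differences were -0.42 to 0.17 in THP-1 and -0.48 to 0.11 in BEAS-2B. Its second probe gave 0.24 ± 0.13 and 0.19 ± 0.13 in the same comparisons, of opposite sign to the first and also not called (adjusted p = 0.181 and 0.483).

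PKM encodes the pyruvate kinase of most tissues and had the smallest adjusted p of the 10 genes after dust. THP-1 levels were 10.03 and 10.14 in medium, 10.07 and 10.10 after 1 h, and 11.20 and 11.27 after 3 h. Control and 1 h arrays overlapped, and the 3 h arrays stood far above all of them. The 3 h difference was 1.15 ± 0.13 from control (adjusted p = 5.66e-05) and 1.15 ± 0.13 from 1 h (adjusted p = 8.27e-05). The raw signal moved the same way, from 1105 and 1121 in medium to 1926 and 2000 after 3 h. Over all probes of the 10 genes 9 of 18 were called at 3 h in THP-1, against 45.4% of all kept probes, and 2 of 18 in BEAS-2B, against 5.59%. From 1 h to 3 h in THP-1 it was 8 of 18, against 39.1%. All 3 PKM probes, annotated to different transcripts of the gene, were called higher in THP-1 at 3 h, by 1.15, 1.24 and 1.67. The lowest value under any of 20 alternatives was 0.97, and the highest adjusted p was 0.000846. In BEAS-2B the arrays read 11.20 and 10.96 in medium, 10.95 and 10.97 after 1 h, then 11.01 and 10.89 after 3 h. These groups overlapped, and no PKM probe was called there, with a 3 h difference of -0.13 ± 0.13 (adjusted p = 0.637).

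LDHA turns pyruvate into lactate and moved against the other called genes in THP-1. Levels were 12.55 and 12.74 in medium, 12.69 and 12.82 after 1 h, then 12.28 and 12.24 after 3 h. The 3 h arrays lay below both other groups. The difference was -0.38 ± 0.13 from control (adjusted p = 0.0337) and -0.49 ± 0.13 from 1 h (adjusted p = 0.0126). Raw signals fell from 6654 and 6253 to 4782 and 4409. The second LDHA probe gave -0.39 ± 0.15 (adjusted p = 0.0584), and the third, dim and detected on 1 of 2 arrays at 3 h, gave -0.19 ± 0.28 (adjusted p = 0.622). The call from control ended under median scaling (-0.37, adjusted p = 0.0544), with each line normalized on its own (-0.44, adjusted p = 0.0711), and without any 1 of 5 arrays: THP-1 control replicate 2, either THP-1 array at 3 h or either BEAS-2B control array (adjusted p = 0.0532 to 0.170). In BEAS-2B the arrays read 13.93 and 13.95 in medium and 13.90 and 13.94 after 3 h, and the difference was -0.02 ± 0.13 (adjusted p = 0.967).

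**Figure D2:**
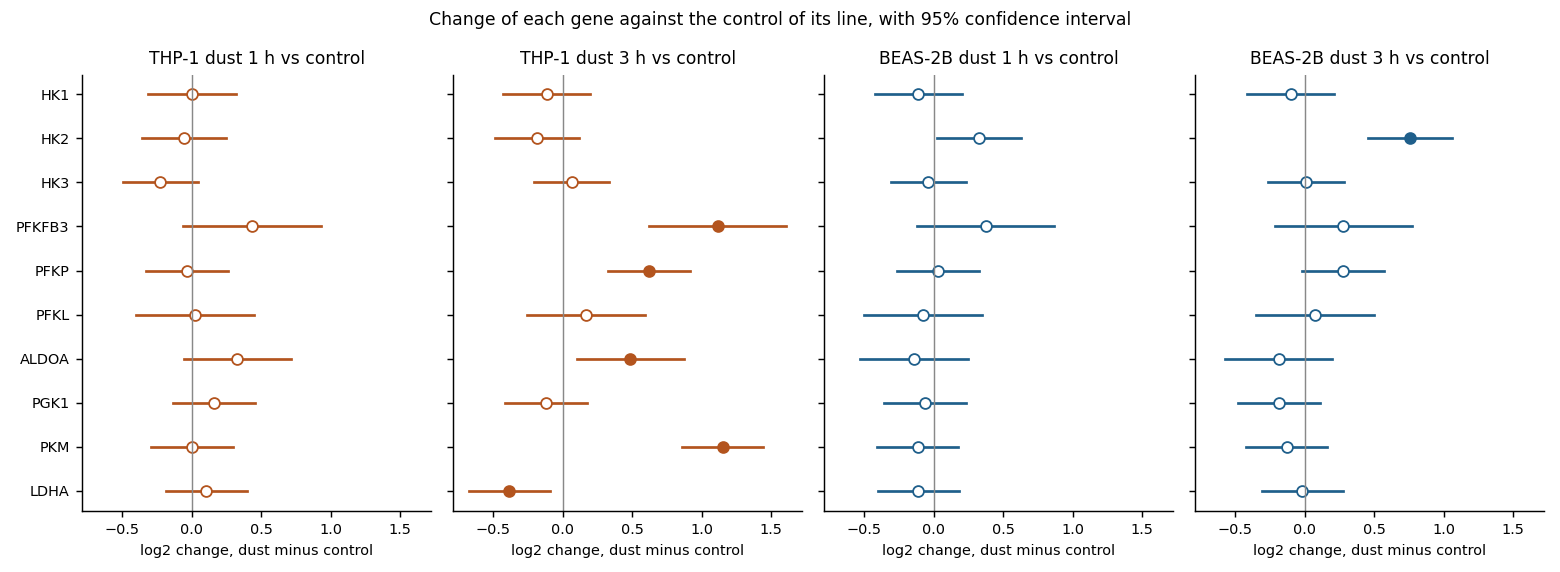
Difference of each gene from the control of its line at 1 h and 3 h (log2, dust minus control, with 95% confidence interval from the fit over 12 arrays); filled points passed an adjusted p under 0.05. In THP-1 at 3 h PKM lay at 1.15 and PFKFB3 at 1.12, and in BEAS-2B at 3 h HK2, at 0.76, was the filled point.

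**Figure D3:**
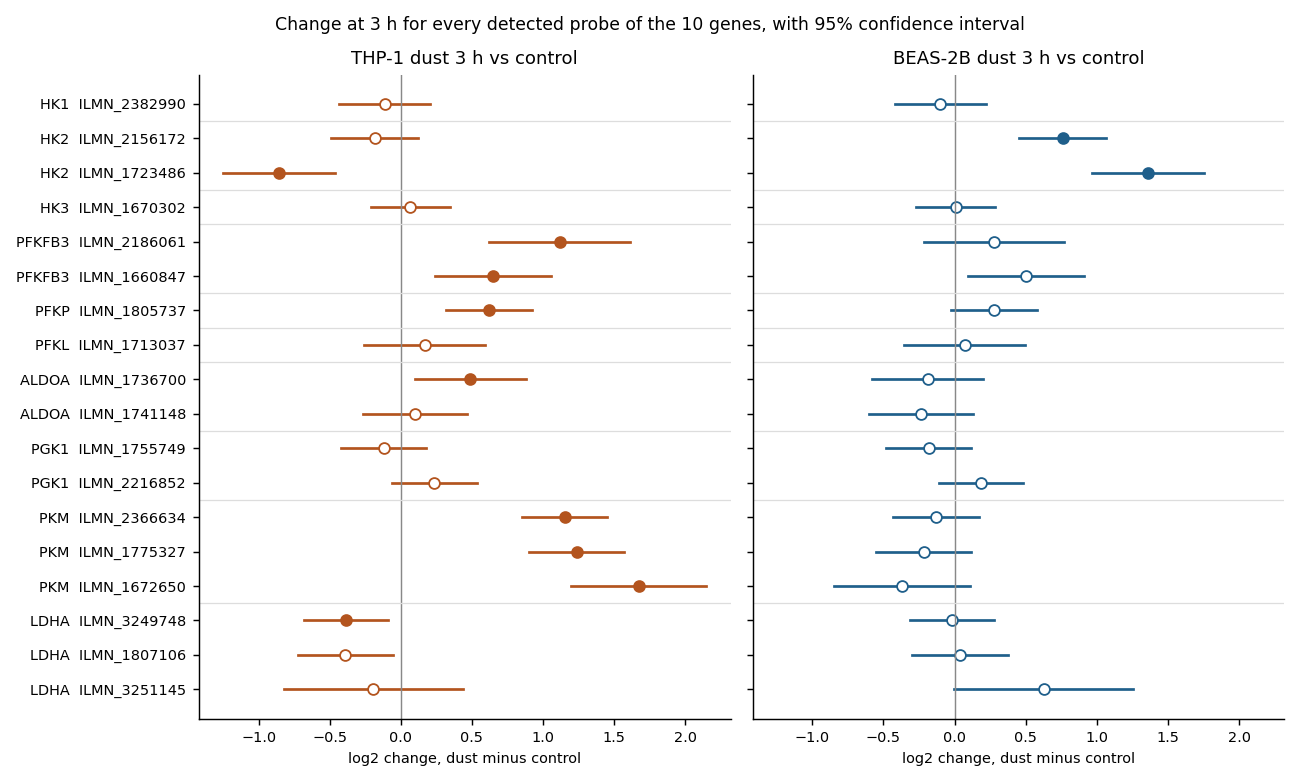
Difference at 3 h for each of the 18 kept probes (log2, dust minus control, with 95% confidence interval); filled points passed an adjusted p under 0.05 among 19045 probes. The 3 PKM probes rose in THP-1 by 1.15 to 1.67, both HK2 probes rose in BEAS-2B, and the ALDOA and LDHA probes of a gene were not all called.

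Between 1 h and 3 h within THP-1, 39.5% of all genes were called (16.8% higher and 22.6% lower), and of the members PKM, PFKP (0.65 ± 0.13, adjusted p = 0.00291) and PFKFB3 (0.68 ± 0.22, adjusted p = 0.0329) were higher and LDHA was lower. The PFKFB3 call ended without either 1 h array or without replicate 1 at 3 h (adjusted p = 0.0558, 0.171 and 0.249), with no filter (adjusted p = 0.0693) and with each line on its own (adjusted p = 0.0601). Under median scaling PFKFB3 (0.44, adjusted p = 0.132) and PFKP (0.41, adjusted p = 0.0609) were not called and HK2 was called lower (-0.42, adjusted p = 0.0392). The LDHA call ended without replicate 2 of either time (adjusted p = 0.0835 and 0.0520). Between 1 h and 3 h within BEAS-2B, 2.72% of all genes and 0 of the 10 were called by limma, and HK2 alone (0.43 ± 0.14, adjusted p = 0.145) had an unadjusted p under 0.05.

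Scaling mattered in THP-1 at 3 h. With median scaling in place of quantile normalization the median difference of all genes moved from -0.05 to -0.30, and the calls went from 2966 higher and 4101 lower to 1650 higher and 6046 lower. PKM, PFKFB3 (0.76, adjusted p = 0.0119) and ALDOA (0.57, adjusted p = 0.0311) were called higher under both scalings.

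The difference between the lines in the response was tested directly, as the BEAS-2B difference minus the THP-1 difference. At 3 h it was called for 26.6% of all genes (14.8% with a positive and 11.7% with a negative value) and for 2 of the 10. Among probes, 5 of 18 were called, against 26% of all kept probes. For HK2 it was 0.94 ± 0.19 (adjusted p = 0.00527) and for PKM -1.28 ± 0.19 (adjusted p = 0.000811), and both stayed called in all 19 alternatives run for this comparison. PFKFB3 (-0.84 ± 0.32, adjusted p = 0.0755), ALDOA (-0.68 ± 0.25, adjusted p = 0.0681), PFKP (-0.34 ± 0.19, adjusted p = 0.214) and LDHA (0.37 ± 0.18, adjusted p = 0.175) did not pass, although all 4 were called in THP-1 and not in BEAS-2B. With the replicate number as a block, ALDOA and PFKFB3 also passed (adjusted p = 0.0325 and 0.0227). ALDOA passed as well without background correction and from the authors' values (-0.67 and adjusted p = 0.0411 in both). For PFKFB3 the difference was called without replicate 2 of THP-1 at 3 h (-1.17) and without replicate 1 of BEAS-2B at 3 h (-1.05). At 1 h 0.568% of all genes and 0 of the 10 were called by limma, with 0 of the 10 at an unadjusted p under 0.05.

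In medium the lines differed in 8 of the 10 genes, against 62.3% of all genes (32.2% higher and 30.1% lower in BEAS-2B). BEAS-2B cells had more PFKP (difference 1.97 ± 0.13), HK1 (1.46 ± 0.14), LDHA (1.29 ± 0.13), PKM (0.99 ± 0.13), PFKFB3 (0.82 ± 0.22), ALDOA (0.69 ± 0.17) and HK2 (0.61 ± 0.14), with adjusted p between 3.74e-07 and 0.00822. HK3 was at least 10.2-fold lower in BEAS-2B (adjusted p = 3.48e-10), where its value was set to the lowest signal of a detected probe on each array. PFKL (-0.22 ± 0.19) and PGK1 (0.05 ± 0.13) were not called. The second probes of PFKFB3 (0.01 ± 0.18) and ALDOA (-0.25 ± 0.17) showed no called difference between the controls, so these depend on the probe. For LDHA the second probe also read higher in BEAS-2B (mean 13.29 against 12.01). The third LDHA probe, which was dim, showed no called difference (-0.29 ± 0.28). All 3 PKM probes and both HK2 probes were higher in BEAS-2B. The PFKFB3 call ended without BEAS-2B control replicate 1 (adjusted p = 0.0518).

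Ordered by level, 4 genes kept all BEAS-2B groups above all THP-1 groups: HK1, HK2, PFKP and LDHA. Among these 4 genes, THP-1 control and 1 h arrays overlapped in each. The BEAS-2B neighbours all overlapped for HK1 and LDHA, for PFKP control overlapped with 1 h, and for HK2 none did. For PKM the order was THP-1 in medium, THP-1 at 1 h, the 3 BEAS-2B groups and THP-1 at 3 h at the top. The gap between THP-1 at 3 h and BEAS-2B in medium was 0.16, the arrays just not overlapping. For PFKFB3 the 3 h THP-1 mean of 9.91 lay between those of BEAS-2B at 3 h and at 1 h, and their arrays overlapped. The next group below, BEAS-2B in medium, overlapped with BEAS-2B at 3 h. For ALDOA every neighbour overlapped except THP-1 in medium and THP-1 at 1 h. For PFKL every neighbour in the order overlapped, and for PGK1 all neighbours did except BEAS-2B in medium and THP-1 at 1 h. HK3 had the 3 BEAS-2B groups at background and the THP-1 groups above, with 3 h and control overlapping and 1 h below both.

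Of 22 further glycolysis genes, 15 were tested, and in THP-1 at 3 h 2 were called higher and 2 lower, against 19.1% and 26.5% of all genes, with a median difference of -0.13. ENO3, the muscle enolase, rose by 0.93 ± 0.21 (adjusted p = 0.00437), a call lost under median scaling. PFKFB4, a relative of PFKFB3, fell by 0.72 ± 0.19 (adjusted p = 0.00915), and BPGM was at least 1.40-fold lower. TIGAR passed the test but was detected in neither group. GAPDH (-0.13 ± 0.13, adjusted p = 0.463), ENO1 (0.13 ± 0.13, adjusted p = 0.456), TPI1 (0.33 ± 0.19, adjusted p = 0.200) and PGAM1 (-0.42 ± 0.17, adjusted p = 0.0626) were not called. In BEAS-2B at 3 h 0 were called higher and 1 lower, against 3.26% and 2.21% of all genes. The lower gene was PFKFB2 (-0.50 ± 0.13, adjusted p = 0.0474), a call lost without background correction and in the authors' values. In medium 12 of the 15 were higher in BEAS-2B and 2 lower, against 32.2% and 30.1% of all genes, with a median of 0.93. Among the higher were TIGAR (at least 6.83-fold), the neuronal enolase ENO2 (at least 4.35-fold) and PFKM (at least 6.99-fold).

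SLC2A6, a lysosomal member of the glucose carrier family, read 9.96 and 10.12 in THP-1 in medium, 11.64 and 11.45 after 1 h, and 12.74 and 12.78 after 3 h. In BEAS-2B it read 9.25 and 9.31 in medium, 9.59 and 9.89 after 1 h, then 11.16 and 11.03 after 3 h. The groups did not overlap within either line, and the 3 h differences were 2.72 ± 0.15 in THP-1 (adjusted p = 4.07e-07) and 1.82 ± 0.15 in BEAS-2B (adjusted p = 9.61e-05). The rise was larger in THP-1 (line difference -0.90 ± 0.21, adjusted p = 0.00964). SLC2A3, a high-affinity glucose carrier, rose in THP-1 by 1.06 ± 0.22 at 1 h (adjusted p = 0.0423) and by 1.48 ± 0.22 at 3 h (adjusted p = 0.000310). SLC2A1, the carrier of most cells, was not called at 3 h in either line (-0.20 ± 0.17 in each, adjusted p = 0.380 and 0.578), though under median scaling it was called lower in THP-1. Of the 8 glucose and lactate transport genes tested, 2 were called higher and 2 lower (SLC2A10 and SLC37A4) in THP-1 at 3 h. Over all genes these shares were 19.1% and 26.5%. In BEAS-2B at 3 h 1 was higher (SLC2A6) and 0 lower, against 3.26% and 2.21%. None of the 8 was a lactate carrier of the SLC16 family.

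Over all genes 26.5% were lower and 19.1% higher in THP-1 at 3 h. The 4 lists of neighbouring pathways given next also held more lower than higher genes. Of 12 tested genes for the entry of pyruvate into mitochondria 4 were lower and 1 higher. PDHB, a subunit of pyruvate dehydrogenase, read 11.29 and 11.37 in medium and 9.17 and 9.52 after 3 h, a fall of 1.99 ± 0.16 (adjusted p = 6.56e-06). PDK4, a kinase that switches pyruvate dehydrogenase off, was lower already at 1 h (-1.13 ± 0.14, adjusted p = 0.00196) and at 3 h was at least 2.83-fold lower (adjusted p = 2.76e-07). PDK2 was at least 1.62-fold lower. PDHX rose (0.93 ± 0.15, adjusted p = 0.000610). Of 9 pentose phosphate genes 5 fell and 0 rose, led by RPE (-1.51 ± 0.17, adjusted p = 4.22e-05) and PGLS (-0.90 ± 0.12, adjusted p = 0.000130), with TKT (-0.77) and H6PD (at least 1.61-fold lower). Without background correction PGD was called higher among them. Of 17 genes of the citric acid cycle 6 fell and 2 rose (CS and OGDH), and IDH1, which makes NADPH in the cytosol, fell by 2.81 ± 0.13 (adjusted p = 1.79e-07). SUCLG2 (-0.81) and MDH1 (-0.63) were also lower, and CS was higher (0.78). IDH1 also fell in BEAS-2B, by 0.82 ± 0.13 (adjusted p = 0.00652), the 1 gene of these 3 lists called there at 3 h. Over all genes 5.47% were called in BEAS-2B at 3 h. Of 12 genes of gluconeogenesis and glycogen 5 fell and 1 rose in THP-1 and 0 were called in BEAS-2B by limma. GYG1, the protein primer of glycogen, fell by 1.27 ± 0.15 (adjusted p = 5.98e-05), PYGB and PCK2 were lower (-0.72 each) and GBE1 higher (0.73). The median differences of these 4 lists lay between -0.38 and -0.20, against -0.05 for all genes. Under median scaling OGDH and GBE1 lost their calls upward, and 6 to 11 genes of each list were lower. That scaling also moved the median difference of all genes to -0.30 and raised the count of lower calls over all genes, as given above. The lower genes of these lists are therefore not a shift of their own.

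**Figure D4:**
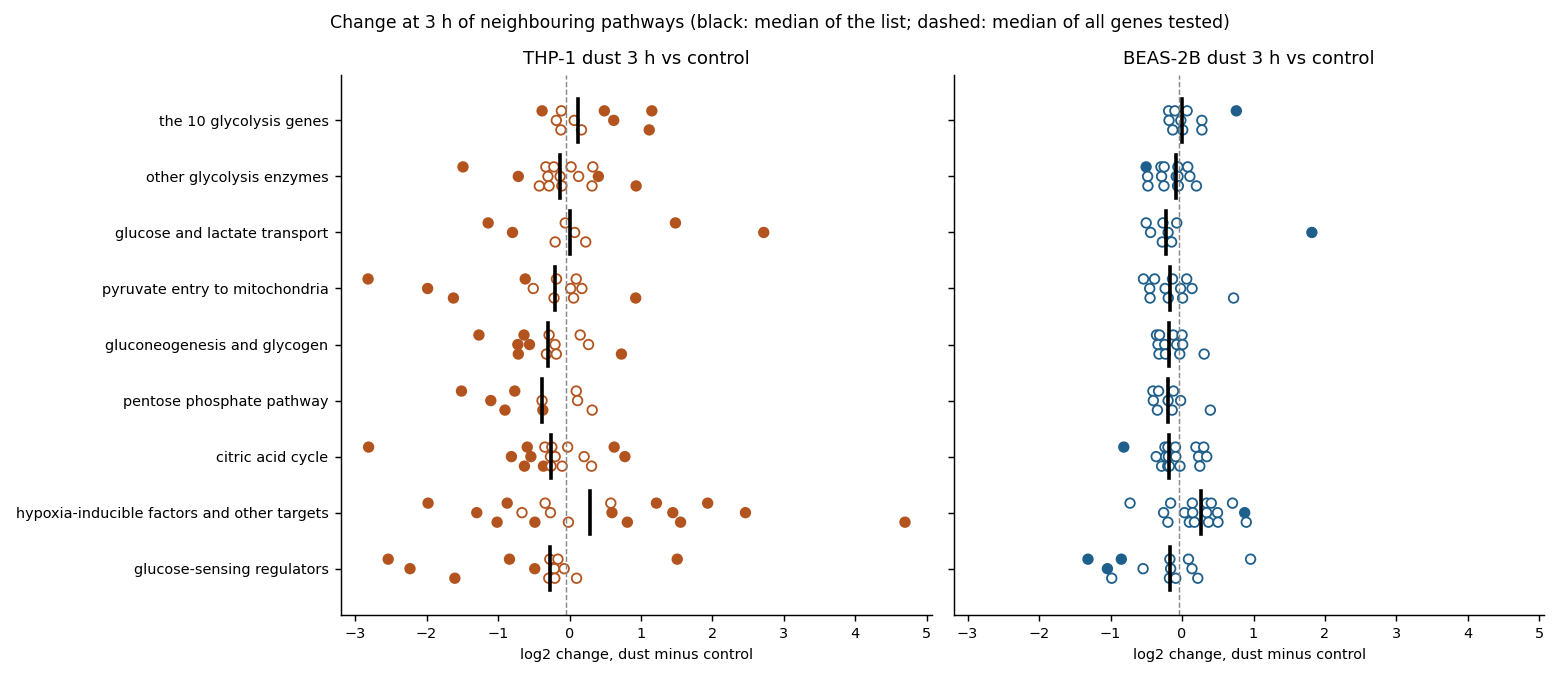
Difference at 3 h of the 10 genes and of 8 lists of neighbouring pathways (log2, dust minus control; each point is 1 gene, filled where the adjusted p was under 0.05, black bar the median of the list, dashed line the median of all genes). The plotted genes spread more widely in THP-1 than in BEAS-2B, where 45.6% and 5.47% of all genes were called. The list of hypoxia-inducible factors had the highest median in both lines, at 0.28 in THP-1 and 0.26 in BEAS-2B.

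Among regulators, HIF1A RNA read 7.57 and 7.17 in THP-1 in medium, 7.70 and 7.36 after 1 h, and 9.48 and 9.13 after 3 h, a rise of 1.93 ± 0.19 (adjusted p = 2.18e-05). In BEAS-2B it read 9.05 and 9.15 in medium and 9.69 and 9.49 after 3 h, and this difference was not called. Of 18 genes of the hypoxia-inducible factors, their regulators and other targets, 8 were higher and 5 lower in THP-1 after 3 h, against 19.1% and 26.5% of all genes. VEGFA, a vascular growth factor, rose by 1.22 ± 0.13 (adjusted p = 4.15e-05), and ADM, a vasodilator peptide, was at least 18.2-fold higher and ANKRD37 at least 2.89-fold. EPAS1, ARNT and KDM3A were among the 5 lower genes. P4HA1 and NDRG1 lost their calls under median scaling. In BEAS-2B BHLHE40, a transcriptional repressor, rose at 1 h (2.52 ± 0.21, adjusted p = 0.000179), as did ADM (2.12 ± 0.28, adjusted p = 0.00337), and both were lower at 3 h than at 1 h (-2.02 and -1.95, adjusted p = 0.000853 and 0.00596). VEGFA rose there at 3 h (0.88 ± 0.13, adjusted p = 0.00424), and in THP-1 already at 1 h (0.98 ± 0.13, adjusted p = 0.00307). TXNIP, which restrains glucose uptake, changed in THP-1 by -1.58 ± 0.30 at 1 h (adjusted p = 0.0265) and by -2.54 ± 0.30 at 3 h (adjusted p = 7.02e-05). MYC, an activator of glycolysis genes, rose in BEAS-2B at 1 h by 1.31 ± 0.25 (adjusted p = 0.0328). Of the 13 glucose-sensing regulators tested 1 was higher (ARRDC4) and 5 lower in THP-1 at 3 h, against 19.1% and 26.5% of all genes. Among the lower were MLX (-1.60 ± 0.21, adjusted p = 0.000161) and FOXK1 (-2.23 ± 0.34, adjusted p = 0.000407). In BEAS-2B at 3 h 0 rose and 3 fell, against 3.26% and 2.21% of all genes. The 3 were MYCN, PRKAB2 and PPARGC1A, the last detected on 0 of 2 arrays at 3 h and 1 of 2 in medium. MYC was called higher in BEAS-2B at 3 h under median scaling.

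In medium the neighbouring pathways also differed between the lines. BEAS-2B cells had more SLC2A8 (difference 1.80), PGM1 (2.03), IDH3B (2.14) and P4HA2 (3.15), and less MPC1 (-1.80), PGLS (-1.62), PGD (-1.29) and IDH2 (-1.87). Against THP-1 arrays below detection, ADM was at least 27.5-fold higher in BEAS-2B, MLXIPL at least 3.78-fold, MYCN at least 2.28-fold and SLC2A12 at least 2.27-fold. FBP1, the enzyme that reverses phosphofructokinase in gluconeogenesis, was at least 7.52-fold lower in BEAS-2B, and PDK4 at least 3.22-fold. These are called genes with the smallest p of each list, so all passed limma's test by choice (adjusted p at most 1.65e-05). Whole lists had higher and lower calls for 5 and 3 of 8 transport genes and 4 and 3 of 12 pyruvate entry genes. For gluconeogenesis and glycogen it was 3 and 3 of 12, and for pentose phosphate 1 and 5 of 9. For the citric acid cycle it was 4 and 3 of 17, for hypoxia genes 9 and 5 of 18, and for regulators 5 and 3 of 13. Over all genes 32.2% were higher and 30.1% lower.

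Genes most like HK2 over the 12 arrays, by Pearson correlation after the mean of each line was removed, were MALL (r = 0.943), KRT34 (r = 0.936) and CXCL5 (r = 0.934). None of them was detected in THP-1, so the likeness is that of the BEAS-2B arrays. There KRT34 and CXCL5 were not detected in medium, so their rise starts from background. For HK3 they were RBM25 (r = 0.920), TBC1D2B (r = 0.919) and a probe annotated to MIR555 (r = 0.897), and as HK3 was background in BEAS-2B this rests on the THP-1 arrays. The MIR555 probe was detected there on 1 array in medium, 0 at 1 h and 2 at 3 h. For PFKFB3 they were NSRP1 (r = 0.962), EIF1 (r = 0.960) and PRNP (r = 0.959). All points share 1 chip and 1 normalization, and these values are descriptions.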

How the data were processed

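The deposited table of raw values holds, per the file headers, for each probe a linear signal intensity, its standard error over beads, a bead count and a detection p-value. The submitters' processing notes name GenomeStudio 2011.1. The authors' second deposited table gives linear intensity values whose sorted values are equal in every column, as quantile normalization leaves them. That step is not given in the sources used here. All value columns were mapped to samples by the array names in the labels.

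Signals were background-corrected from the detection p-values (offset 16), quantile-normalized and turned into log2 values with limma 3.58.1 in R 4.3.3. None of these log2 values were deposited. Probes not detected (p under 0.01) on both arrays of any group were left out, which kept 19045 of 47320, and the brightest kept probe stood for each gene, which left 11422 named genes and 4067 unnamed probes. Symbols came from the platform's probe annotation, updated through a RefSeq gene table. The 12 arrays entered a single fit of 6 group means (lmFit, eBayes; 6 residual and 4.3 prior degrees of freedom), with Benjamini-Hochberg adjustment within a comparison at 0.05. The code was tested on simulated data. A fold against a group below detection was taken against the lowest normalized signal of a detected probe on each array and is a lower bound. Precision was limited by 2 arrays a group, with a median of 21 beads a probe.

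The 10 genes and the pathway lists were chosen with earlier results of these data known. All 10 genes are reported. The rule for the lists was up to 4 called genes with the smallest p in each dust comparison and up to 2 in medium. GAPDH, ENO1, TPI1, PGAM1, PFKM, SLC2A1, EPAS1, ARNT, KDM3A and list genes named for a lost or gained call were picked with their values in view. Values were recomputed with median scaling, without background correction, from the authors' value table, with each line on its own, with all kept probes, with no filter or with detection on all 12 arrays, with the replicate number as a block, and with each array left out. A 6 h time named in the design text was not analysed here.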

Additional observations from a re-analysis of the deposited data

Results flagged for a closer look

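HK2 responded differently in the lines at 3 h, by a test of the difference itself. The BEAS-2B difference minus the THP-1 difference was 0.944 log2 (adjusted p = 0.00527 by limma), made of 0.76 in BEAS-2B and -0.18 in THP-1. In BEAS-2B both dust arrays lay above both control arrays. The THP-1 difference was not called (adjusted p = 0.302 by limma), and its nearest dust and control arrays almost touched, at 6.634 and 6.635. The second HK2 probe gives no size for the line difference, as it was detected on 0 of the 2 THP-1 arrays at 3 h and on 1 of the 2 in medium. PKM also differed, with -1.28 log2 (adjusted p = 0.000811), made of -0.13 in BEAS-2B and 1.15 in THP-1. Its other probes gave -1.45 and -2.04 (adjusted p = 0.000820 and 0.000897). Line and dose cannot be told apart in these values.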

How the results depend on the processing

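Over the alternatives, 1718 of the member values kept their side of the threshold, 30 lost and 10 gained a call, and 0 called values changed sign. Most member values were not called in the main fit, so most that kept their side stayed uncalled. The losses all fall on the smaller called part. With detection on all 12 arrays, 9408 genes were tested, which leaves fewer to call: 139 and 4618 in THP-1 at 1 h and 3 h, 69 and 458 in BEAS-2B, 4055 and 176 from 1 h to 3 h in THP-1 and BEAS-2B, 26 and 2451 for the line difference at 1 h and 3 h, and 5812 between controls. Median scaling moved the split of higher and lower calls to 171 and 90 in THP-1 at 1 h (195 and 60 with quantile normalization), 199 and 330 from 1 h to 3 h in BEAS-2B (219 and 203), 475 and 618 in BEAS-2B at 3 h (505 and 342), 1481 and 4863 from 1 h to 3 h in THP-1 (2609 and 3507), and 3447 and 1180 for the line difference at 3 h (2299 and 1815). With each line on its own, 163 genes were called in THP-1 and 113 in BEAS-2B at 1 h, 3 of the 10 genes in THP-1 at 3 h, and 1 (HK2, by its other probe) from 1 h to 3 h in BEAS-2B. In THP-1 on its own, ALDOA was also read by its other probe. Counting all kept probes, 9 probes of the 10 genes were called in THP-1 at 3 h, 2 in BEAS-2B at 3 h, 8 from 1 h to 3 h in THP-1 and 5 for the line difference at 3 h.

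Over 15 pairs of groups the correlation of replicate 2 minus replicate 1 ran from -0.10 to 0.34, with a median of 0.084, and passed 0.1 in 7. As it did not in every pair, and no label ties the numbers to a shared culture, they were not taken to pair the samples. For the brightest probes, replicate 1 was above replicate 2 in all 6 groups for PFKFB3 and below it in all 6 for ALDOA. With the replicate block, 4 of the 10 genes were called for the line difference at 3 h in place of 2, and no other count of the 10 genes moved.

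Leaving out 1 array at a time gave these ranges. Of the 10 genes, 3 to 5 were called in THP-1 at 3 h, 0 to 1 in BEAS-2B at 3 h, 2 to 4 from 1 h to 3 h in THP-1, 2 to 3 for the line difference at 3 h and 7 to 8 between controls, and 0 in the other 4 comparisons. Of all genes, the counts were 151 to 315 and 6015 to 7074 in THP-1 at 1 h and 3 h, 69 to 278 and 217 to 939 in BEAS-2B, 4690 to 6306 and 80 to 451 from 1 h to 3 h in THP-1 and BEAS-2B, 30 to 143 and 2755 to 4270 for the line difference, and 8101 to 9883 between controls. A group left with 1 array was assumed to vary like the others. Leaving out BEAS-2B control replicate 1 gave the 69 and the 217, BEAS-2B 1 h replicate 1 the 80, BEAS-2B control replicate 2 the 30, and THP-1 1 h replicate 1 the 151. The cause was not tested. HK3 in BEAS-2B and the second HK2 probe in THP-1 at 3 h were below detection, so their values there only bound the level. The pathway lists were rerun under median scaling, no background correction and the value table after their counts were seen.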
